A study of Arabidopsis thaliana with 15 samples.

Results

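The transcript levels of the genes that encode the subunits of the 26S proteasome were described in Arabidopsis thaliana rosettes. The genes were taken by gene identifier from a list of RPT, RPN, PA and PB subunits. All 45 genes of the list were present among the 32833 genes of the count table, and all 45 passed the filter on low counts that left 19663 genes for testing. The list held 10 RPT, 14 RPN, 11 PA and 10 PB genes. Complete rosettes were harvested after 28 days of growth from plants of 5 lines in the Col-0 ecotype, with 3 libraries per line. The reference line carried green fluorescent protein behind the bundle-specific GLDPA promoter of Flaveria trinervia, and the other 4 lines were made in that line, so all 5 shared the reporter. In the activation-tagged line the GLDT promoter of F. trinervia, which is also bundle-specific, sat inside the coding sequence of the transcription factor gene NAC052. The CRISPR/Cas line had an inserted nucleotide in NAC052. The GLDT::NAC052 line carried the GLDT promoter before the whole coding sequence of NAC052, and the GLDT::5'truncatedNAC052 line carried it before a coding sequence that lacks the 5' part, each at a random place in the genome. Each genotype was represented by 1 line, and the RNA came from complete rosettes, of which the cells around the veins are a part.

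The 26S proteasome degrades proteins that carry chains of ubiquitin. Its regulatory particle recognises, unfolds and feeds in these proteins, with a ring of RPT ATPases that unfold the substrate and with RPN subunits that form the base and the lid, bind ubiquitin or remove it. The core particle is a stack of outer rings of PA (alpha) subunits, which gate the entrance, and inner rings of PB (beta) subunits, among which PBA1, PBB1, PBB2 and PBE1 carry the peptidase sites. Many subunits of Arabidopsis are encoded by a pair of paralogous genes. NAC053 and NAC078 are transcription factors that activate proteasome genes when proteasome activity falls short, and NAC053 is the next gene downstream of NAC052 on chromosome 3.

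Library totals ran from 28074380 to 38579309 deposited counts, and the member counts ran from 249 to 6149 per library. Libraries of a line correlated at r = 0.982 to 0.993 across the tested genes, and no pair of libraries agreed within sampling noise. Replicate 3 of both GLDT lines stood apart: its chi-square per gene against replicates 1 and 2 was 64.2 to 70.3, whereas replicates 1 and 2 differed by 27.0 and 28.9. It also had the most subunit genes above the reference mean, with 20 against 10 and 12 in the GLDT::NAC052 and 27 against 22 and 10 in the GLDT::5'truncatedNAC052 line. Scaling factors ran from 0.889 to 1.11. By the lane number in the column names, the reference and activation-tagged libraries came from lane 1 and the other 9 libraries from lane 8. For the 3 lines on lane 8 the lane and the line therefore cannot be told apart in a comparison with the reference line, whereas the 3 comparisons among these lines are free of it. Without the scaling, on library totals alone, the median log2 fold change of all tested genes against the reference line moved to -0.11 in the activation-tagged, 0.19 in the CRISPR/Cas, 0.09 in the GLDT::5'truncatedNAC052 and 0.11 in the GLDT::NAC052 line, so the changes below are relative to a genome-wide median near 0. Leaf markers were high in all libraries and root markers were at or near 0, with 2 of 4 root genes at 0 in every library.

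In the reference line the levels of the 45 genes, as counts scaled to the library size (CPM) per kb of annotated exon, spanned 10.6-fold. The median level was 45.5 for the PB, 43.0 for the PA, 34.4 for the RPN and 29.9 CPM per kb for the RPT genes. Among the PB genes the highest level was that of the structural subunit gene PBF1, with 90.4, 81.3 and 79.9 CPM per kb in the 3 libraries, and the lowest was that of PBC2, with 23.6, 22.6 and 25.5. PAC1 led the PA genes with 76.8, 73.6 and 76.6 CPM per kb, and PAF2 was lowest with 9.84, 8.13 and 8.97. These extremes did not overlap in any library, whereas neighbours in the order mostly did: PBF1 at 83.9 ± 5.7 CPM per kb (SD, n = 3) and PBA1, whose product has the caspase-like peptidase site, at 78.9 were within their spread of each other. Among the RPT genes RPT5A was highest, with 77.4, 77.2 and 71.4 CPM per kb, and its paralog RPT5B was lowest, with 13.2, 13.8 and 10.7. Among the RPN genes the ubiquitin receptor gene RPN10 was highest, with 55.2, 51.8 and 49.1 CPM per kb, and the lid gene RPN5B was lowest of all 45, with 7.79, 7.92 and 7.95. The lowest level of the RPT, RPN, PA and PB genes each belonged to the less abundant copy of a paralogous pair. That a lowest gene with a paralog was the less abundant copy follows from the ranking, as both copies of each pair were in the same group. The ranking does not require that the lowest gene belonged to a pair.

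**Figure D1:**
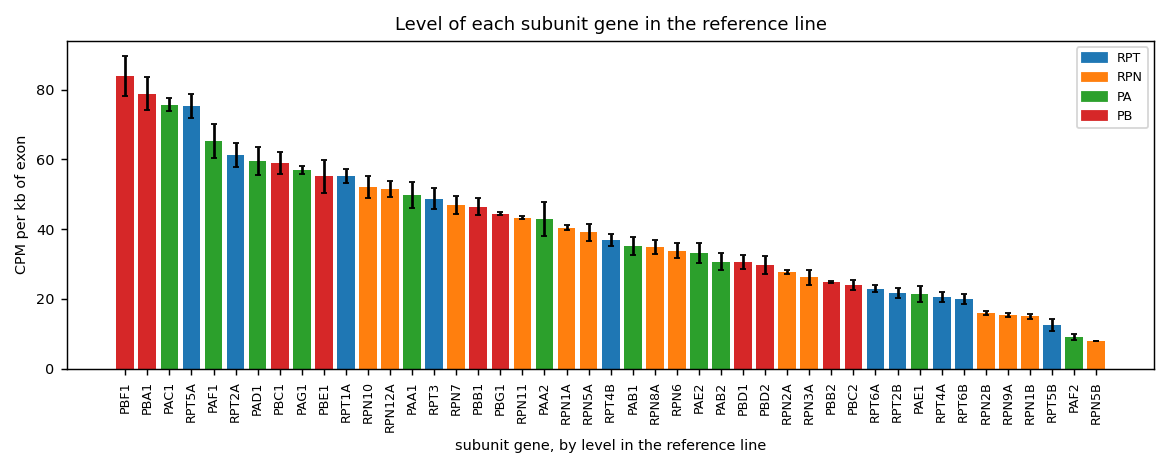
Level of each of the 45 subunit genes in the reference line, in CPM per kb of annotated exon, ordered from high to low and coloured by RPT, RPN, PA and PB. Bars are means and error bars SD of 3 libraries. PBF1 is highest at 83.9 CPM per kb and RPN5B lowest at 7.89.

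NAC053 was higher in the activation-tagged line, at 36.4, 36.7 and 40.5 CPM against 11.9, 10.5 and 10.4 CPM in the reference line. The log2 fold change was 1.79 (SE 0.22, adjusted p = 0.00153, edgeR), and this rise was known when the subunit list was chosen. In the CRISPR/Cas line NAC053 stood at 22.4, 18.9 and 20.8 CPM, again above all reference libraries, with a log2 fold change of 0.92 (SE 0.22, adjusted p = 0.00959, edgeR). The NAC053 libraries of the GLDT::NAC052 line, at 10.8, 14.2 and 21.6 CPM, overlapped the reference line (log2 fold change 0.50, adjusted p = 0.0943, edgeR; 0.71 with adjusted p = 0.0188 without replicate 1). Those of the GLDT::5'truncatedNAC052 line, at 13.5, 12.7 and 21.1 CPM, lay above it without passing the test (0.52, adjusted p = 0.186, edgeR). In both GLDT lines replicate 3 had the highest NAC053 value. NAC052 itself ran at 19.7, 20.6 and 19.5 CPM in the reference line and at 64.0, 61.7 and 80.01 CPM in the activation-tagged line, without overlap. The log2 fold change of 1.78 did not pass in the main fit (adjusted p = 0.0945, edgeR). It passed under 2 of the 8 alternatives other than leaving out a library. NAC052 was at 280, 27.2 and 165 CPM in the GLDT::NAC052 line (log2 fold change 2.98, adjusted p = 0.00158, edgeR). The library labelled GLDT::NAC052 replicate 2 was thus close to the reference level, and so was GLDT::5'truncatedNAC052 replicate 1, at 25.01 against 66.0 and 52.5 CPM in replicates 2 and 3. NAC052 in the CRISPR/Cas line, at 22.2, 20.1 and 22.6 CPM, overlapped the reference line (log2 fold change 0.12, adjusted p = 0.896, edgeR). NAC078, the partner of NAC053, was higher in the GLDT::NAC052 line (log2 fold change 0.40, adjusted p = 0.012, edgeR). Its fold changes in the activation-tagged and CRISPR/Cas lines were 0.02 and 0.29 (adjusted p = 0.943 and 0.0653, edgeR).

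The NAC052 and NAC053 genes lie on the plus strand of chromosome 3 of the TAIR10.1 assembly, at 3267825 to 3271202 and 3271217 to 3274176, with 14 annotated bases between them. That stretch is shown because it is all that separates the annotated end of the tagged gene from the annotated start of NAC053; in these 14 bases no TGGGC occurs.
NAC053, chr3:3271203-3271216: cttcaaatatattc

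**Figure D2:**
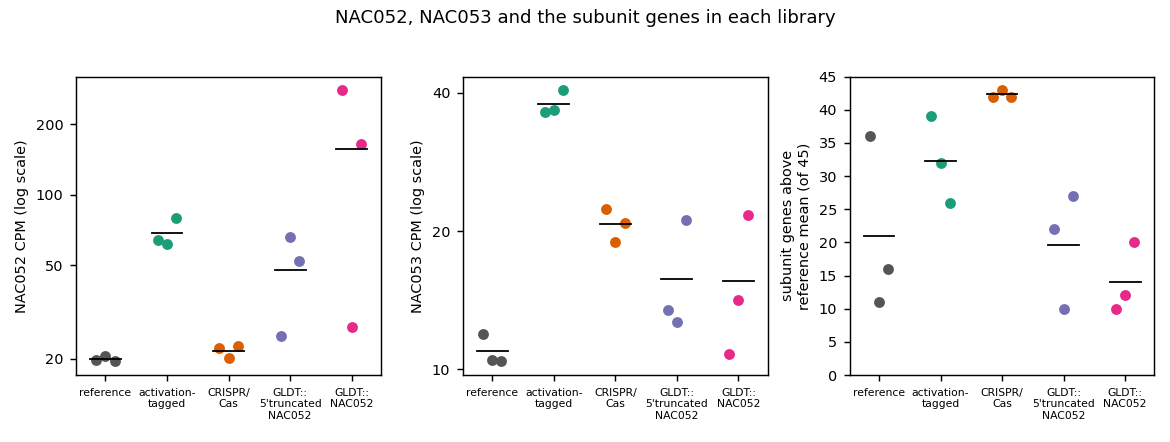
NAC052 and NAC053 in CPM on log axes, and the number of the 45 subunit genes above their reference mean, for each of the 15 libraries by line. Points are libraries and bars are line means. NAC053 is at 36.4 to 40.5 CPM in the activation-tagged line, where 26 to 39 subunit genes lie above the reference mean, and at 18.9 to 22.4 CPM in the CRISPR/Cas line, where 42 or 43 do.

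In the activation-tagged line, in which NAC053 rose most, 2 of the 45 subunit genes rose and 0 fell, against 1.9% and 1.74% of all tested genes. No subunit gene changed more than 2-fold, as did 1.14% of all genes. The ATPase gene RPT6B (AT5G20000, chromosome 5, 6756633 to 6759800) stood at 49.5, 47.2 and 45.7 CPM against 34.1, 34.5 and 38.9 CPM in the reference line, a log2 fold change of 0.41 (SE 0.08, adjusted p = 0.0184, edgeR). The alpha subunit gene PAE2 (AT3G14290, chromosome 3, 4764024 to 4766609) stood at 48.9, 46.6 and 52.6 CPM against 42.0, 40.1 and 35.4 CPM, a log2 fold change of 0.33 (SE 0.08, adjusted p = 0.0393, edgeR). For both genes all 3 libraries lay above all reference libraries. The other genes did not pass, among them RPN5B, with 18.2, 17.9 and 20.3 CPM against 14.2, 14.4 and 14.5 (log2 fold change 0.39, adjusted p = 0.0606, edgeR), and RPT5A, with 156, 144 and 151 against 132, 132 and 122 CPM (0.22, adjusted p = 0.0793, edgeR), which were chosen after their values were seen. At an unadjusted p under 0.05 there were 9 members, or 20.0%, beside 18.7% of all genes. The median log2 fold change over the 45 genes was 0.07, beside -0.01 over all genes, with 32 genes above 0 and 13 below. Leaf markers summed to 53645 to 59341 against 46792 to 50267 CPM and senescence markers to 89.8 to 98.1 against 104 to 139 CPM in the reference line, without overlap and with none of these genes called, and their part in the result was not tested. The summed level of the 45 genes was 3074, 2943 and 2918 CPM, overlapping the reference libraries at 2933, 2752 and 2760 CPM, and the mean was 5.8% above the reference mean. By subcomplex, only the RPT sum lay above the reference in all 3 libraries, at 770, 743 and 731 against 696, 678 and 681 CPM. The count of rises was 0 without reference replicate 2, activation-tagged replicate 1 or activation-tagged replicate 2 and 1 without any other library, so no member call held in every such fit. On library totals alone the median turned to -0.04, although its distance from the median of all genes remained 0.07.

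In the CRISPR/Cas line, in which NAC053 was also higher, 13 of the 45 genes rose, by small steps, and 0 fell, against 11.0% and 12.8% of all tested genes, while 32 did not pass. The log2 fold change was above 0 for 43 of 45. The rises comprised 5 of 10 RPT, 3 of 14 RPN, 3 of 11 PA and 2 of 10 PB genes. None exceeded 2-fold, as did 6.73% of all genes. The median log2 fold change was 0.16, beside 0.00 over all genes, and the median of the RPT genes was 0.28. The alpha subunit gene PAA2 (AT2G05840, chromosome 2, 2234019 to 2236470) stood at 87.4, 97.0 and 87.8 CPM against 73.7, 68.2 and 58.6 CPM in the reference line, a log2 fold change of 0.44 (SE 0.09, adjusted p = 0.0034, edgeR). RPN11 (AT5G23540, chromosome 5, 7937630 to 7939604), which encodes the deubiquitinase of the lid, stood at 76.8, 77.6 and 78.8 CPM against 57.3, 57.9 and 58.2 CPM, a change of 0.43 (SE 0.09, adjusted p = 0.00348, edgeR). The ATPase gene RPT1A (AT1G53750, chromosome 1, 20065394 to 20068500) stood at 138, 144 and 147 CPM against 114, 106 and 109 CPM (0.39, SE 0.07, adjusted p = 0.00211, edgeR). The ATPase gene RPT3 (AT5G58290, chromosome 5, 23569052 to 23571854) stood at 124, 134 and 133 CPM against 96.6, 98.2 and 108 CPM (0.37, SE 0.10, adjusted p = 0.0143, edgeR). In all 13 genes the CRISPR/Cas libraries lay above all reference libraries. The other genes that rose were RPT4A, RPT4B, RPT6B, RPN6, RPN10, PAA1, PAD1, PBD2 and PBG1, with log2 fold changes of 0.24 to 0.34. The lowest fold change of the 45 was that of RPN1B, at -0.15, which did not pass.

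The summed level of the 45 genes in the CRISPR/Cas line was 3114, 3288 and 3216 CPM, above all reference libraries and 13.9% above the reference mean. In 42, 43 and 42 of the 45 genes, by replicate, the level was above the reference mean, whereas reference replicate 1 had 36 such genes and reference replicates 2 and 3 had 11 and 16. The number of rises was 6 to 11 when a library was left out. PAA2, RPN11 and RPT1A passed in 6 of 6 such fits and RPT3 in 4. The number was 6 without reference replicate 2, 8 without reference replicate 3, 7 without CRISPR/Cas replicate 2 and 8 without CRISPR/Cas replicate 3. On library totals alone 39 genes were called higher and the median was 0.34, again 0.15 above that of all genes. The median of all genes was itself 0.19 there, and the share of all genes called is not given for that scaling. Other tissue signals moved in the same libraries. The summed level of 5 markers of dividing cells was 33.7 to 43.9 CPM against 52.3 to 65.2 CPM in the reference line, with 4 of 5 called lower. That of 5 flower markers was low, at 0.681 to 0.880 against 1.40 to 1.61 CPM. Of these flower genes 2 passed the filter on low counts, and 0 were called. The summed level of 4 senescence markers was 159 to 198.5 against 104 to 139 CPM. SAG13 carried most of that shift, from a mean of 2.04 to 56.6 CPM (log2 fold change 4.78, adjusted p = 0.000176, edgeR), while SAG12 had no count and PPH and SAG21, at 82.8 and 43.5 against 78.5 and 37.1 CPM, were not called. The 4 leaf markers summed to 37244 to 42885 against 46792 to 50267 CPM. The part of these shifts in the result was not tested, and in whole rosettes fewer cells of a type and less RNA per cell cannot be told apart.

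The comparison of the CRISPR/Cas line with the GLDT::5'truncatedNAC052 line, both on lane 8, does not differ in lane. Of the 45 genes, 20 were higher in the CRISPR/Cas line and 0 lower, against 13.2% and 15.4% of all tested genes. The median log2 fold change was 0.22, beside -0.01 over all genes. RPN11 stood at 47.7, 52.3 and 61.8 CPM in the GLDT::5'truncatedNAC052 line, below all CRISPR/Cas libraries (log2 fold change 0.53, SE 0.09, adjusted p = 0.000602, edgeR). RPT1A, RPT4A and PBG1 followed with 0.44, 0.43 and 0.37, and of the 20 genes only RPN6 had overlapping libraries. The count fell to 9 without CRISPR/Cas replicate 2, to 10 without GLDT::5'truncatedNAC052 replicate 2 and to 13 without GLDT::5'truncatedNAC052 replicate 1, the library with little NAC052, and was 12 when only the 6 libraries of the comparison were fitted. Dividing-cell markers summed to 33.7 to 43.9 CPM in the CRISPR/Cas and 47.1 to 50.9 CPM in the GLDT::5'truncatedNAC052 line without overlap, with 1 of 5 called lower. Of 4 leaf markers 1 was called lower, SAG13 was higher by 4.60 and PPH differed by -0.29 on the log2 scale (adjusted p = 9.21e-05 and 0.0253, edgeR), and their part in the result was not tested.

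**Figure D3:**
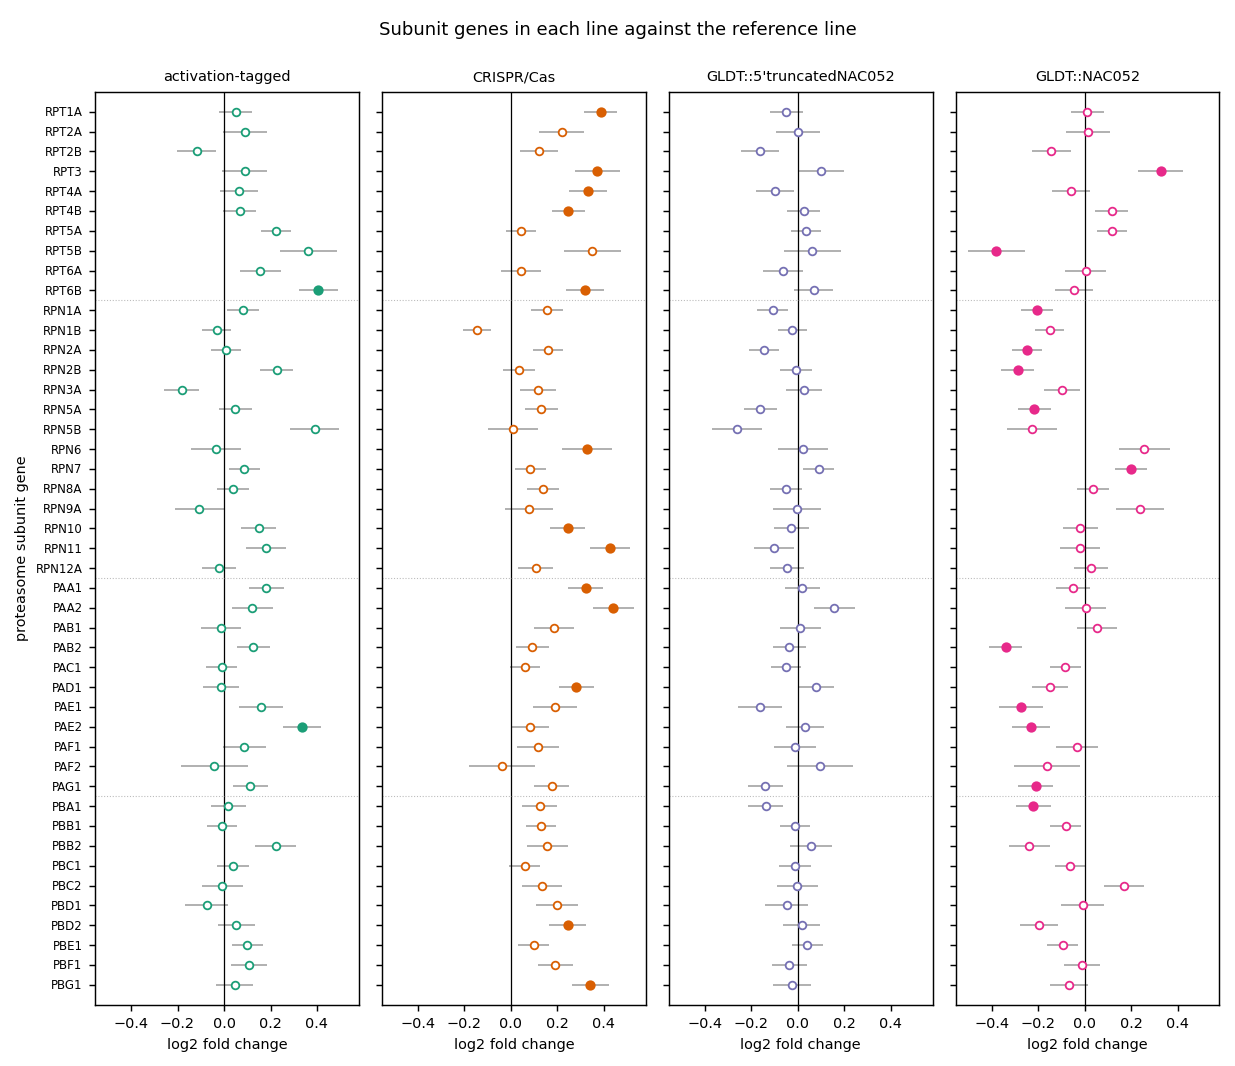
Log2 fold change of each of the 45 subunit genes against the reference line in the 4 other lines, with the SE as bars. Filled points passed an adjusted p of 0.05 and open points did not. In the CRISPR/Cas line 43 of 45 points lie above 0, and in the GLDT::NAC052 line 31 of 45 lie below.

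In the GLDT::5'truncatedNAC052 line none of the 45 genes was called (0 higher and 0 lower, against 2.8% and 3.03% of all tested genes by edgeR; 0.941% of all genes changed more than 2-fold, and no member did). At an unadjusted p under 0.05 there were 3 members, or 6.67%, beside 21.7% of all genes, and DESeq2 and limma voom also called 0. The median log2 fold change was -0.01, with a range from -0.26 to 0.16, and on library totals it was 0.06. The summed level was 2757, 2689 and 2879 CPM, within the range of the reference libraries apart from replicate 2, which lay below them.

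In the GLDT::NAC052 line, which had the most NAC052, 10 subunit genes fell and 2 rose, against 17.3% and 17.0% of all tested genes. No member changed more than 2-fold, as did 8.21% of all genes. At an unadjusted p under 0.05 (edgeR) there were 17 members, or 37.8%, beside 44.1% of all genes, so the members were called no more often than other genes. The falls comprised 4 of 11 PA genes (PAB2, PAE1, PAE2, PAG1), 4 of 14 RPN genes (RPN1A, RPN2A, RPN2B, RPN5A), 1 RPT gene (RPT5B) and 1 PB gene (PBA1). The alpha subunit gene PAB2 (AT1G79210, chromosome 1, 29796081 to 29798836) stood at 26.9, 29.7 and 28.7 CPM against 39.1, 35.0 and 33.9 CPM in the reference line, a log2 fold change of -0.34 (SE 0.07, adjusted p = 0.00257, edgeR). RPN2A and RPN2B encode a large scaffold subunit of the base. RPN2B stood at 42.7, 48.7 and 42.8 CPM against 56.1, 55.0 and 52.6 CPM (-0.29, SE 0.07, adjusted p = 0.00651, edgeR). RPN2A stood at 86.5, 79.9 and 79.8 CPM against 97.3, 95.2 and 99.9 CPM (-0.25, SE 0.07, adjusted p = 0.00961, edgeR). PAE2, which rose in the activation-tagged line, stood here at 32.7, 34.6 and 32.7 CPM, below its reference libraries at 42.0, 40.1 and 35.4 CPM (-0.23, SE 0.08, adjusted p = 0.0422, edgeR). In 8 of the 10 genes that fell the 3 libraries lay below all reference libraries. For RPT5B, at 11.9, 16.9 and 15.3 against 20.1, 21.1 and 16.2 CPM (-0.38, SE 0.12, adjusted p = 0.0284, edgeR), and for PAE1 they overlapped.

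The genes that rose in the GLDT::NAC052 line were RPT3 and RPN7, the latter a gene of the lid. RPT3 stood at 123, 120 and 137 CPM against 96.6, 98.2 and 108 CPM (0.33, SE 0.10, adjusted p = 0.0184, edgeR). RPN7 stood at 88.9, 93.7 and 95.1 CPM against 85.5, 77.5 and 78.8 CPM (0.20, SE 0.07, adjusted p = 0.0337, edgeR). RPT3 was thus higher than in the reference line in both the CRISPR/Cas and the GLDT::NAC052 lines, comparisons that share the reference libraries. The median log2 fold change over the 45 genes was -0.06 (all genes 0.00), with 31 genes below 0, and the PA median was -0.15. The PA sum lay below all reference libraries, at 552, 583 and 584 against 657, 601 and 595 CPM, and so did the PB sum, at 535, 560 and 558 against 618, 571 and 570 CPM, whereas the RPT sum was 692, 706 and 757 against 696, 678 and 681 CPM. When a library was left out, PAB2, RPN2A and RPN2B passed in 6 of 6 fits, RPT3 in 3, RPN7 in 2 and PAE2 in 1. The number of falls was 3 without reference replicate 1, GLDT::NAC052 replicate 1 or GLDT::NAC052 replicate 3, and 5 and 6 without reference replicates 2 and 3. Without GLDT::NAC052 replicate 2, the library with little NAC052, 7 genes fell and 1 rose. The number of rises was 0 without reference replicate 2 or GLDT::NAC052 replicate 3, and 1 without reference replicate 1 or 3. On library totals alone 6 genes rose and 1 fell, and the median turned to 0.05. Marker sums moved here too, with 39.6 to 46.7 CPM for dividing cells, 0.609 to 0.720 CPM for flower, 148 to 233 CPM for senescence and 38041 to 46857 CPM for leaf. Called lower were 1 of 5 dividing-cell genes, 1 of 2 tested flower genes and 3 of 4 leaf genes. Of 3 tested senescence genes 2 were called higher. The part of these markers in the result was not tested.

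**Figure D4:**
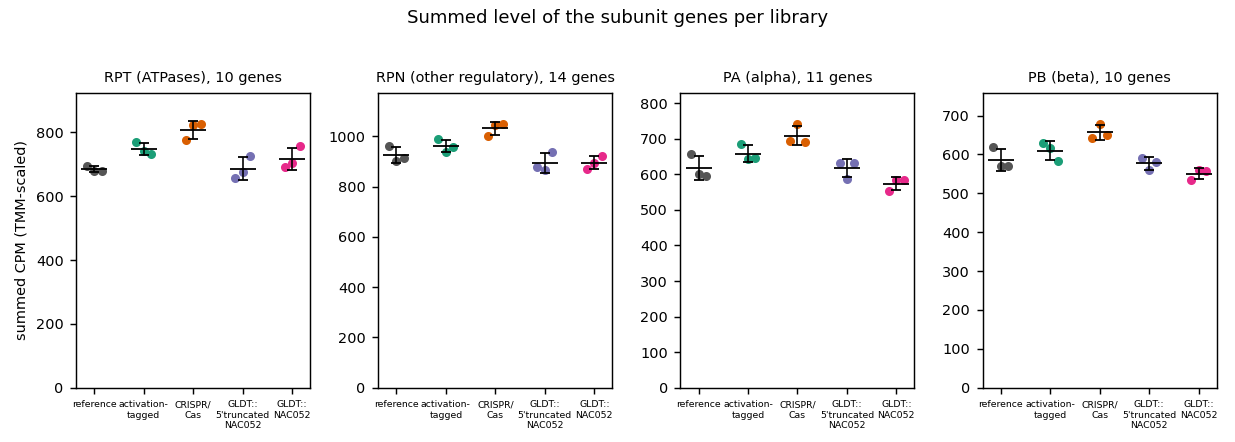
Summed CPM of the 10 RPT, 14 RPN, 11 PA and 10 PB genes in each library by line. Points are libraries, and the black bars are means with SD of 3 libraries. The CRISPR/Cas libraries are highest in all 4 panels, and the GLDT::NAC052 libraries are lowest in the PA panel, at 552 to 584 CPM.

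Against the GLDT::5'truncatedNAC052 line, on the same lane, 3 subunit genes were lower in the GLDT::NAC052 line and 0 higher, against 3.78% and 4.77% of all tested genes. RPT5B stood at 11.9, 16.9 and 15.3 against 20.8, 21.1 and 18.1 CPM (log2 fold change -0.44, SE 0.12, adjusted p = 0.0409, edgeR). PAB2 and RPN2B had log2 fold changes of -0.30 and -0.28 (adjusted p = 0.0221 and 0.0277, edgeR). In all of these the libraries did not overlap. The count was 4 without GLDT::NAC052 replicate 2 and 0 without GLDT::NAC052 replicate 1 or 3 or without GLDT::5'truncatedNAC052 replicate 1 or 2. Without GLDT::5'truncatedNAC052 replicate 3, 1 gene was called higher.

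With scaling, the CRISPR/Cas and the GLDT::NAC052 lines, both on lane 8, differed in more subunit genes than the lines of the other 6 comparisons. On library totals alone the count was 28, below the 39 of the CRISPR/Cas line against the reference line. Of the 45 genes, 26 were higher in the CRISPR/Cas line and 0 lower, against 20.5% and 20.9% of all tested genes. The 26 genes comprised 5 of 10 RPT, 7 of 14 RPN, 7 of 11 PA and 7 of 10 PB genes, and in all 26 the 3 CRISPR/Cas libraries lay above the 3 GLDT::NAC052 libraries. The median log2 difference was 0.24 over the 45 genes and 0.37 over the PA genes, beside 0.00 over all genes. RPT5B had the widest gap, with 24.3, 24.8 and 24.1 CPM in the CRISPR/Cas line against 11.9, 16.9 and 15.3 CPM (0.73, SE 0.12, adjusted p = 0.000359, edgeR). PAE1 stood at 31.0, 36.3 and 33.5 against 23.3, 26.6 and 23.3 CPM (0.46, SE 0.09, adjusted p = 0.00156, edgeR). RPN11 stood at 56.2, 54.8 and 60.3 CPM in the GLDT::NAC052 line (0.45, SE 0.09, adjusted p = 0.000982, edgeR). Genes of both directions against the reference line met in this contrast: RPN11 rose in the CRISPR/Cas line and PAE1 fell in the GLDT::NAC052 line, and no gene did both. The count stayed at 20 to 24 when a library was left out and was 24 without GLDT::NAC052 replicate 2. Dividing-cell markers summed to 33.7 to 43.9 CPM in the CRISPR/Cas and 39.6 to 46.7 CPM in the GLDT::NAC052 line, with 1 of 5 called lower and a median log2 difference of -0.38. Of 4 leaf markers 1 was called higher, and of the 3 senescence markers tested SAG13 was higher by 3.11 and PPH differed by -0.39 on the log2 scale (adjusted p = 0.000319 and 0.00285, edgeR). The part of these markers in the result was not tested.

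**Figure D5:**
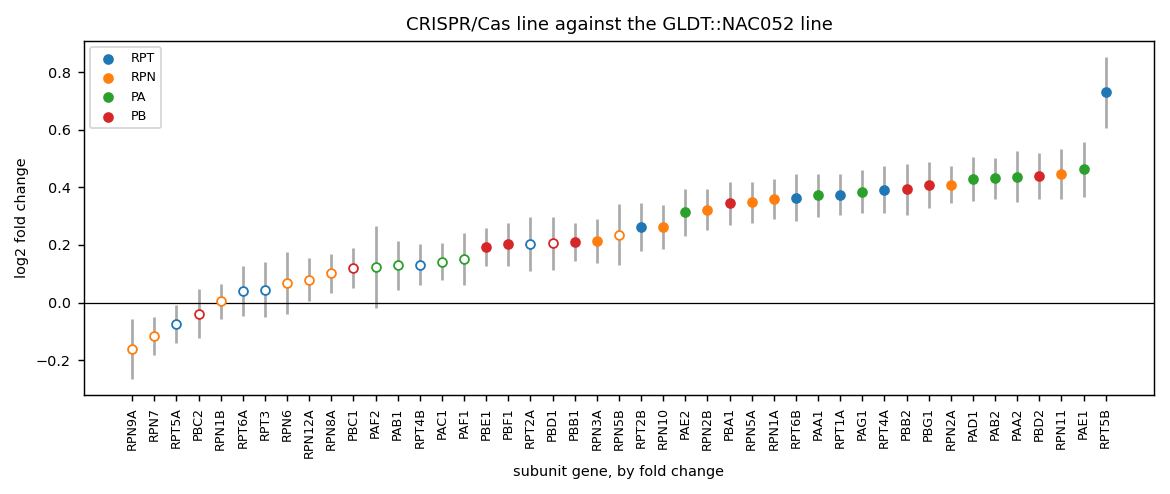
Log2 fold change of each of the 45 subunit genes between the CRISPR/Cas and GLDT::NAC052 lines, ordered by size and coloured by RPT, RPN, PA and PB, with the SE as bars. Filled points passed an adjusted p of 0.05. The 26 filled points all lie above 0, from 0.19 to 0.73 for RPT5B.

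Over the 7 comparisons, 30 of the 45 genes were called in at least 1, which is a share near that of all tested genes, 60.6%. The 15 genes called in none were RPT2A, RPT5A, RPT6A, RPN1B, RPN5B, RPN8A, RPN9A, RPN12A, PAB1, PAC1, PAF1, PAF2, PBC1, PBC2 and PBD1. In several pairs only the paralog of such a gene was called, as for RPT5A and RPT5B, PAB1 and PAB2, and RPT6A and RPT6B, which are neighbours on chromosome 5; whether the copies differed from each other was not tested. For the 14 paralogous pairs, the share of the first gene in the length-scaled level of the pair was compared across lines. The line means of this share differed by 1.85 to 9.12 percentage points, with a median of 5.04. The first gene of the pair was the more abundant in the reference line in 12 of 14 pairs, of which PBD1 was close to even at 50.7%. PAB1 and PAB2, the pair with the widest range, were chosen for it. The share of PAB1 was 53.3, 52.6 and 54.2% in the reference line and 59.8, 59.5 and 60.9% in the GLDT::NAC052 line, without overlap. The other lines averaged 50.9 to 54.9%. PAB1 itself was at 0.06 (adjusted p = 0.662, edgeR) in the GLDT::NAC052 line, whereas PAB2 passed the test. How the counting split reads between near-identical paralogs is not given in the sources used here, and neither is its use of strand: exons of 16 of the 45 genes overlap those of another annotated gene, among them RPT1A, RPT3, RPN11, RPT5B and PAB2.

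Genes with linked roles were counted for comparison. In the CRISPR/Cas line 5 of 8 genes for proteasome assembly and partner proteins rose and 0 fell against the reference line, against a background of 11.0%. The largest were the CDC48 paralog CDC48D, encoding a segregase that extracts ubiquitinated proteins, which went from 5.15 to 16.0 CPM (log2 fold change 1.64, adjusted p = 0.000169, edgeR), and the activator gene PA200 (0.53, adjusted p = 0.0208, edgeR). Of 16 genes for ubiquitin, its activation and shuttle receptors, 3 rose and 1, RAD23C, fell. The polyubiquitin gene UBQ10 rose by 0.63 (adjusted p = 0.0175, edgeR). Of 9 further subunit paralogs outside the 45, PAD2 rose by 0.45 (adjusted p = 0.00438, edgeR), and of 10 genes of the COP9 signalosome, a complex related to the lid, CSN7 rose by 0.26 (adjusted p = 0.041, edgeR). In the activation-tagged line, where 1.9% of all genes rose, PTRE1 was the sole gene of these 4 lists to rise (0.26, adjusted p = 0.0353, edgeR). PTRE1 encodes a proteasome regulator. In the GLDT::NAC052 line, where 17.3% of all genes fell and 17.0% rose, 2 of the 9 further paralogs fell and 1, RPN3B, rose, 2 of the 10 COP9 genes rose and 1 fell, and 2 of the 16 ubiquitin genes rose. RPN12B and PAC2 had log2 fold changes of -1.30 and -0.97 (adjusted p = 0.0157 and 0.0207, edgeR) from low reference means of 0.900 and 1.44 CPM. Of the COP9 genes, CSN4 and CSN1 rose by 0.55 and 0.54 (adjusted p = 0.00341 and 0.0015, edgeR) and CSN6B fell, with a log2 fold change of -0.46 (adjusted p = 0.0232, edgeR). CDC48D rose there too, by 0.65 (adjusted p = 0.0191, edgeR). In that line UBA1, a ubiquitin-activating enzyme gene, and RAD23B rose by 0.34 and 0.26 (adjusted p = 0.0115 and 0.0339, edgeR). In the GLDT::5'truncatedNAC052 line, where 2.8% of all genes rose and 3.03% fell, RPT1B was the only gene of these 4 lists called (0.37, adjusted p = 0.0481, edgeR).

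The 250 bases before the annotated start of each gene were searched on both strands for TGGGC, an element reported in promoters of proteasome genes under stress, with its longer forms TGGGCC and TGGGCT, which contain it, counted apart. Of the 45 genes, 20 held TGGGC, which is 44.4% beside 25.95% of 19307 tested protein-coding genes, and 15 held it 2 or more times, 33.3% beside 15.7%. TGGGCC occurred in 33.3% beside 16.8%, and TGGGCT in 31.1% beside 14.4%. Among the 20 genes with TGGGC 5 rose in the CRISPR/Cas line against the reference line, with a median log2 fold change of 0.16. Among the 25 genes without it 8 rose, with a median of 0.13. In the activation-tagged line 0 of the 20 rose, with a median of 0.04, and 2 of the 25, with a median of 0.09. In the GLDT::NAC052 line 4 of the 20 fell, with a median of -0.09, and 6 of the 25, with a median of -0.05. Of the genes called against the reference line, RPT1A, RPT3, RPN6, RPN1A, RPN2B, PAD1, PAE1, PBA1 and PBG1 held TGGGC in this window. The others, among them RPN11, PAA1, PAA2, RPT6B, PAE2, RPT5B and PAB2, had none. Next to the start of PAE2, PAB2 and RPT5B only 11, 14 and 53 bases were free of annotated exons. The window was read whole, also where it runs into a neighbouring gene, and a match is only a description of the sequence.

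The windows of 4 genes that the results turn on are shown: RPT1A, which rose in the CRISPR/Cas line, and RPN2B, which fell in the GLDT::NAC052 line, each with 2 matches, and RPT6B, which rose in the activation-tagged line, and PAA2, which rose in the CRISPR/Cas line, each with none; they were picked with and without the motif after it was counted. Capitals mark TGGGC or its reverse complement GCCCA, and each sequence reads 5' to 3' on the strand of the gene and ends at the base before its annotated start.
RPT1A, minus strand of chr1:20068501-20068750: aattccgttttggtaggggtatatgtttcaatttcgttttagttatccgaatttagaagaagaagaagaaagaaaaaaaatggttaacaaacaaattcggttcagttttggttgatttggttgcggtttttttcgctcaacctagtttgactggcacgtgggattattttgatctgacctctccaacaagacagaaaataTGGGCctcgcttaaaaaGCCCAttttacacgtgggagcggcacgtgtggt
RPN2B, plus strand of chr1:1349830-1350079: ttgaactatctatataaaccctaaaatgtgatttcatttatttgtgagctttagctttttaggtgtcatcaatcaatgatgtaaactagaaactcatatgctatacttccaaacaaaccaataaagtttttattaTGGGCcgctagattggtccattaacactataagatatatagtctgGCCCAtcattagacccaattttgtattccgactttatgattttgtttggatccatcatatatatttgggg
RPT6B, plus strand of chr5:6756383-6756632: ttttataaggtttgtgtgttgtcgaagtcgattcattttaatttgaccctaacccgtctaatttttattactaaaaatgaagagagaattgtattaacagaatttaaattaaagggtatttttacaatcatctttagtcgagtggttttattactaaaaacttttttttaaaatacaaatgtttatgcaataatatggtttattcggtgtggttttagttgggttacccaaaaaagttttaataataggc
PAA2, plus strand of chr2:2233769-2234018: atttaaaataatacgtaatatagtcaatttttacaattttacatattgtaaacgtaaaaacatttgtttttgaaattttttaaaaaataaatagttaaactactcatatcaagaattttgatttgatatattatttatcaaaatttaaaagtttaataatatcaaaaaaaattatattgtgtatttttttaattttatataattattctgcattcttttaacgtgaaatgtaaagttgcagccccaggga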

How the data were processed

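Messenger RNA of rosettes was sequenced from 15 libraries made with a stranded kit. The authors trimmed the reads and mapped them to TAIR10 with CLC Genomics Workbench, and the deposited values are whole-number counts per gene without normalization. A further 6 value columns matched none of the samples described and were left out. The subunit list, the other gene lists and the motif were chosen with earlier results of these data known. The higher NAC053 level in the activation-tagged line was among those results and was a reason for choosing the subunit list. Gene models, positions and exon lengths came from the RefSeq annotation of TAIR10.1, in which 32548 of the 32833 genes were found.

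Counts were tested in R 4.3.3 with edgeR 4.0.16 (TMM scaling, filterByExpr, quasi-likelihood F-test) as 1 fit over the 15 libraries in which each line had its own mean, and p-values were adjusted by Benjamini-Hochberg over the 19663 genes. A gene was called at an adjusted p under 0.05. The standard errors (SE) were derived from the fold change and its F statistic. CPM are counts divided by the scaled library size. The p-values measure the spread between the 3 replicates of each line, called biological in the study's methods. As this spread was estimated over the 15 libraries together, a comparison of 2 lines also carries the spread of the lines outside it. Genes given in every library were, per line, up to 4 rises and 4 falls among called members whose libraries all lay outside the reference range, the extremes of level and the widest paralog pair, with RPT5B, PAE1, RPN5B and RPT5A added after their values were seen, as were RPN3B, RAD23C and CSN6B in the linked lists. In the linked lists, the 2 called genes with the largest change were named, except for 1 gene that is not reported here. The alternatives were other scalings and filters, DESeq2 1.42.0, limma 3.58.1, only the 6 libraries compared, a replicate block, a limit on the fold change (above 2 or below 0.5) and leaving out each library. The study's methods name no pairing of libraries. Same-numbered deviations of GLDT::NAC052 and GLDT::5'truncatedNAC052 correlated at 0.206, 0.201 and 0.586, the last for replicate 3, which stood apart in both lines. In every other comparison the lowest of the 3 correlations was 0.0453 or less. Between these 2 lines the block left 3 genes called. Whether the libraries were paired is not known. The procedure was tested on simulated data.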

Additional observations from a re-analysis of the deposited data

Results flagged for a closer look

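Between the CRISPR/Cas and GLDT::NAC052 lines, which share a lane, 26 of the 45 subunit genes differed by the test of the difference itself (edgeR, adjusted p under 0.05). Each had more transcript in the CRISPR/Cas line. Of all tested genes, 20.5% were called higher and 20.9% lower in the CRISPR/Cas line. The widest log2 differences were those of RPT5B at 0.73, PAE1 at 0.46 and RPN11 at 0.45.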

How the results depend on the processing

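Fold changes against the reference line were followed for NAC052, NAC053, RPT6B, PAE2, PAA2, RPN11, RPT1A, RPT3, PAB2, RPN2A, RPN2B and RPN7. No fold change followed in this way changed sign under the alternatives, but the balance of counts and the group medians did. For the other named genes this is not given. On library totals alone the activation-tagged line had 0 rises, the CRISPR/Cas line 39 and the GLDT::NAC052 line 6 rises and 1 fall, in place of 2 and 10, and the GLDT::NAC052 line had 0 falls against the GLDT::5'truncatedNAC052 line. The mean summed level was then 2712 CPM in the reference, 2671 in the activation-tagged, 3505 in the CRISPR/Cas and 2858 in the GLDT::NAC052 line, beside 2815, 2978, 3206 and 2738 CPM with scaling, so that the activation-tagged and GLDT::NAC052 lines changed sides of the reference line. The median log2 fold changes of 0.07 (activation-tagged), -0.06 (GLDT::NAC052) and -0.01 (GLDT::5'truncatedNAC052) turned to -0.04, 0.05 and 0.06. Without the filter there were 1 rise in the activation-tagged line and 4 falls in the GLDT::NAC052 line. DESeq2 gave 5 rises in the activation-tagged line, 4 rises in the GLDT::NAC052 line and 6 falls of that line against the GLDT::5'truncatedNAC052 line. With only the 6 libraries compared, the GLDT::NAC052 line had 1 rise and 2 falls, and 0 falls against the GLDT::5'truncatedNAC052 line, and 12 genes were higher in the CRISPR/Cas than in the GLDT::5'truncatedNAC052 line. With the limit on the fold change the counts against the reference line were 0. Shares of all tested genes are given for the main fit, with and without this limit, and not for the other alternatives.

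When a library was left out, the rises numbered 0 to 1 in the activation-tagged, 6 to 11 in the CRISPR/Cas and 0 to 3 in the GLDT::NAC052 line, and the falls of the latter 3 to 7. Against the GLDT::5'truncatedNAC052 line, 9 to 19 genes were higher in the CRISPR/Cas line, and 0 to 1 were higher and 0 to 4 lower in the GLDT::NAC052 line. Between the CRISPR/Cas and GLDT::NAC052 lines 20 to 24 were higher. Elsewhere the same-numbered deviations did not correlate in all replicates. The replicate block gave 1 rise in the activation-tagged line, 14 rises for CRISPR/Cas, and 2 rises and 8 falls for GLDT::NAC052. With it, 20 and 25 genes were higher in CRISPR/Cas than in GLDT::5'truncatedNAC052 and GLDT::NAC052. Causes of these shifts were not tested, except that fewer libraries entered the fit when some were left out. Longest-transcript lengths in place of all exons moved the PAB1 share to 54.7% in the reference and 61.3% in the GLDT::NAC052 line. They moved the PBD1 share in the reference line from 50.7 to 49.8%, so PBD1 was then the less abundant copy.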
